A study of Mus musculus with 71 samples.

Results

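The genes described here are 54 genes of the cell cycle and of mitosis, out of 25579 genes with a TPM value (transcript abundance, a read count scaled for gene length and depth) in mouse pro-B cells and lymphoid progenitors. They were taken by symbol, from a list chosen with earlier results of these data known. The list held 8 G1 cyclins and kinases, 3 inhibitors of cyclin-dependent kinases (CDKs), 5 transcription factors, 14 genes of replication licensing and DNA synthesis, 10 mitotic cyclins, kinases and checkpoint genes, and 14 genes of chromosome structure, spindle and cytokinesis. In the lymphoid progenitor table, 46 of them stood under their plain symbol. Poly(A) RNA was sequenced from cells sorted ex vivo from C57BL/6 mice. The study asked which domains of Pax5, the transcription factor that commits progenitors to the B lineage, are needed for its function. Pro-B cells of the bone marrow came from Pax5+/+ mice (5 samples) and, with 2 samples each, from mice homozygous for a deletion of the octapeptide (Pax5 ∆OP/∆OP), of the partial homeodomain (∆HD/∆HD) or of both (∆OP,HD/∆OP,HD). Deletions of C-terminal regulatory domain 1, which holds the transactivation domain, of domain 2, or of both were examined as homozygotes (∆CRD1/∆CRD1, ∆CRD2/∆CRD2, ∆CRD1,2/∆CRD1,2) and opposite a null allele (∆CRD1/-, ∆CRD2/-, ∆CRD1,2/-), also with 2 samples each. The labels write ∆ as D. Pax5-deficient progenitors came from Vav-Cre Pax5 fl/fl mice, in which Cre acts in haematopoietic stem cells and hence in all blood lineages. A separate experiment, called the Prd experiment here, held Vav-Cre Pax5 fl/+ pro-B cells, Vav-Cre Pax5 fl/fl progenitors and Vav-Cre Pax5 Prd/fl progenitors, whose remaining allele encodes the paired domain alone. All 3 of its groups carried Vav-Cre and at least 1 floxed allele. The lymphoid table held wild-type LMPPs (lymphoid-primed multipotent progenitors) from bone marrow, wild-type thymocytes at the successive stages DN1, DN2a, DN2b, DN3a and DN3b, and DN3a thymocytes of Rag2-/- mice, which cannot assemble antigen receptor genes. Ages of the sorted mice are not stated per sample.

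A cell enters the cycle when D-type cyclins with Cdk4 or Cdk6, and then E-type cyclins with Cdk2, release E2F transcription factors, which switch on genes for licensing and copying DNA. CDK inhibitors of the Cip/Kip and Ink4 families hold these kinases back. Genes needed in G2 and mitosis are transcribed later, under the MuvB, B-Myb and FoxM1 complexes, from promoters that often carry a CCAAT box and a cell cycle homology region (CHR). Pro-B cells divide under interleukin-7 before they rearrange light chain genes, and thymocytes divide in a burst at the DN3a to DN3b step, once the pre-T cell receptor is assembled.

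The promoters of 5 members that carry the results below are shown first, since they hold the letters by which G1/S and G2/M genes are usually told apart. Each is the window of 250 bases before and 50 bases after an annotated start in RefSeq's annotation of GRCm38.p6, printed 5′ to 3′ on the gene's own strand. Capitals mark matches on either strand to CCAAT, to the CHR letters TTTGAA or TTCGAA, or to the E2F letters TTTCCCGC, TTTGGCGC, TTTCGCGC or TTTGCCGC. Plk1 (a mitotic kinase, chr7:122159185-122159484, plus strand), Prc1 (a spindle midzone protein, chr7:80294201-80294500, plus strand) and Cdc25b (the phosphatase that activates Cdk1, chr2:131186698-131186997, plus strand) each held a CCAAT and a CHR match. The window of Mcm6 (a subunit of the replicative helicase, chr1:128359656-128359955, minus strand) held 3 E2F matches, the first 2 of which overlap, and 2 CCAAT matches. That of E2f2 (an activator of the E2F family, chr4:136172024-136172323, plus strand, the upstream of its 2 starts) held 1 E2F and 1 CCAAT match. The window of the other E2f2 start (chr4:136180532-136180831, not printed) held 0 E2F, 1 CHR and 3 CCAAT matches, so the 2 windows differ in these letters.
Plk1: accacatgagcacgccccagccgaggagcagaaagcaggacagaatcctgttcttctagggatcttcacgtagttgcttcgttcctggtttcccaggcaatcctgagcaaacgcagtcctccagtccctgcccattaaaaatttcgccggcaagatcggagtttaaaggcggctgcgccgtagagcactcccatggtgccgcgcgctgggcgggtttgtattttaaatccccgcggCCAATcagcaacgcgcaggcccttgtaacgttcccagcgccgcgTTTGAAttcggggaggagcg
Prc1: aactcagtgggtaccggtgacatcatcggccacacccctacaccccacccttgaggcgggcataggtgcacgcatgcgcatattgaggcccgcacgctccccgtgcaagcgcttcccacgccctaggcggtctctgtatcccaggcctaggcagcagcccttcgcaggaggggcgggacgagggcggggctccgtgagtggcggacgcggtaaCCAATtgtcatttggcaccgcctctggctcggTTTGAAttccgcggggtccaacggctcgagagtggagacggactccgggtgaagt
Cdc25b: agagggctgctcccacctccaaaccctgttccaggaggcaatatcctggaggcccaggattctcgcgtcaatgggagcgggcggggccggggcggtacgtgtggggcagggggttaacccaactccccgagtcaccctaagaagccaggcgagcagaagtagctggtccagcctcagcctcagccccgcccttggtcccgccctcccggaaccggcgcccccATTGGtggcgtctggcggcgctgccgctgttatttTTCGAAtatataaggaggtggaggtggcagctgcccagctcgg
Mcm6: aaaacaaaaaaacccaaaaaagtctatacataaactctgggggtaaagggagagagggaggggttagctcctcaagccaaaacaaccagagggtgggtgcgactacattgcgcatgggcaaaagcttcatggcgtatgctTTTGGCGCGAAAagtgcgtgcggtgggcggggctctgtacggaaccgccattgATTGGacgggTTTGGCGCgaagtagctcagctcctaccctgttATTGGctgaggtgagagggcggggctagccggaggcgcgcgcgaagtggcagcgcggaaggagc
E2f2: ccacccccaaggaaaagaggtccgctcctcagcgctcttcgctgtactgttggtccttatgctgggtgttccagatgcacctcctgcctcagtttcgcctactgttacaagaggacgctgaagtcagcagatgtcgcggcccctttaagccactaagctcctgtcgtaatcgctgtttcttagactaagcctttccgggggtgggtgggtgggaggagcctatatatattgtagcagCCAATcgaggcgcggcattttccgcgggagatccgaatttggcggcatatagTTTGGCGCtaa

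Promoter windows were given for 45 of the members (51 windows). A CHR match stood in 43.1% of these windows and in 19.2% of 32851 windows of all genes, and CHR and CCAAT together in 39.2% and 7.52%. By role, CHR and CCAAT stood together in 7 of 8 windows of mitotic cyclins, kinases and checkpoint genes, in 8 of 13 of chromosome and spindle genes, in 3 of 14 of replication genes and in 0 of 6 of G1 cyclins and kinases. E2F letters stood in 7 of 14 windows of replication genes and 0 of 13 of chromosome and spindle genes, against 2.26% of all windows. CCAAT, with or without CHR, stood in 68.6% of the members' windows and 37.4% of all. A match is a description of the letters, not of a bound site.

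Depth, recovered from the TPM values, ran from 10018678 to 43784791 reads per pro-B or progenitor sample, and the lowest count of any member in any of these samples was 43 reads. Pax5 mRNA was still counted in Vav-Cre fl/fl progenitors (1609 to 1697 TPM, against 342 to 524 TPM in Pax5+/+), so it does not check the deletion. Pax5+/+ replicates 1, 2 and 5, the ∆CRD1/∆CRD1 and Vav-Cre fl/fl samples of the pro-B experiments and the lymphoid samples were read at 50 nucleotides, and the others at 100. The authors trimmed all reads to 50 nucleotides for alignment, so read length here marks sets of samples that may differ in other ways. In the model of the C-terminal deletions and Vav-Cre fl/fl progenitors a term for read length was fitted, and called 3 of the 54 members: Cdkn1b, Tyms and E2f1. It called 563 of the 13854 genes tested, a share near that of the members. Fold changes from that model are fitted values with this term, so they can differ from the ratio of the means printed. The models of the central deletions, the Prd experiment and the lymphoid samples carried no such term. Cells of ∆CRD1,2 genotypes and progenitors went through a Lin-Ly6D+B220+Kit hi gate, and the other pro-B cells through a different one, so that gate and genotype cannot be told apart in those groups. Nothing in the labels says that replicates came from separate mice, and the p-values then measure the spread between these samples, which may be technical. In bulk RNA, fewer dividing cells and less RNA per cell cannot be told apart.

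In Pax5+/+ pro-B cells the members were high. The mean over the 54 genes of log2(TPM + 0.1) was 7.02 to 7.45 in the 5 samples, and the highest mean level belonged to Ccnd3, the D-type cyclin of B cell precursors, with 1244 ± 159 TPM (SD, n = 5). It was followed by Cdk4, its kinase partner, with 962 ± 180.1 TPM (SD, n = 5), and Pcna, the sliding clamp of DNA polymerases, with 799 ± 155 TPM (SD, n = 5). The other D-type cyclins were lower, with 97.7 ± 11.3 TPM (SD, n = 5) for Ccnd2 and 5.04 ± 0.740 TPM (SD, n = 5) for Ccnd1. Mki67, which codes for the proliferation antigen Ki-67, varied between replicates, at 329.9, 202, 157, 326 and 309 TPM. The 54-gene mean was lower with loss of domain 1, of both C-terminal domains and of Pax5, at 6.96 to 7.02 in ∆CRD1/-, 6.71 to 6.73 in ∆CRD1,2/- and 5.85 to 5.93 in Vav-Cre fl/fl cells.

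**Figure D1:**
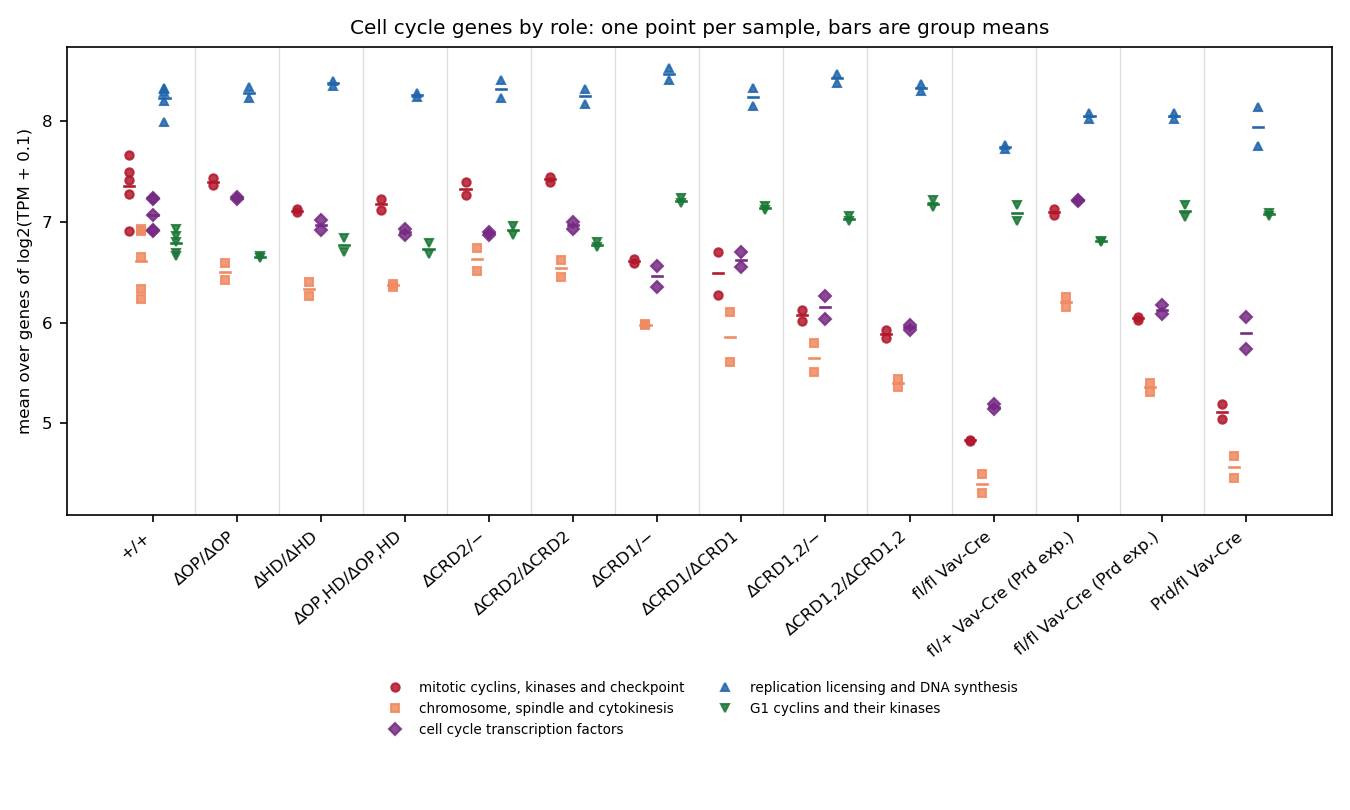
Mean over the members of each role of log2(TPM + 0.1) (vertical axis) in every sample of each genotype (horizontal axis), with 1 symbol per role. Replication genes and G1 cyclins and kinases move least across genotypes, while the mitotic and spindle means of every ∆CRD1, ∆CRD1,2 and progenitor sample lie below those of Pax5+/+ cells and are lowest in the Vav-Cre fl/fl progenitors of the first experiment and in Prd/fl progenitors. The fl/fl progenitors of the Prd experiment lie near ∆CRD1,2 cells, with the 54-gene mean at 7.02 to 7.45 in Pax5+/+ and 5.85 to 5.93 in Vav-Cre fl/fl cells.

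Without the octapeptide, the partial homeodomain or both, no member passed the test (limma, adjusted p under 0.05 over all genes, which is meant by called below). The compared Pax5+/+ samples were replicates 3 and 4, of the same read length. In ∆OP/∆OP cells 0 members were called, where 0.292% and 0.192% of all genes were called higher and lower. In ∆HD/∆HD cells 0 were called (background 0.331% and 0.308%), and in ∆OP,HD/∆OP,HD cells 0 (background 0.739% and 0.485%). At an unadjusted p under 0.05, 15 members were higher and 3 lower in ∆OP/∆OP cells, 9 and 8 in ∆HD/∆HD cells, and 3 and 9 in ∆OP,HD/∆OP,HD cells. The share of all genes at this unadjusted threshold was not worked out, and the percentages above are no background for these counts. The median log2 fold change of the members was 0.00, -0.10 and -0.13, respectively, against -0.03, 0.00 and -0.01 over all genes. Cdc25b had the lowest p in the 2 genotypes without the homeodomain. It stood at 483 and 396 TPM in ∆HD/∆HD and 479 and 449 TPM in ∆OP,HD/∆OP,HD cells, against 635 to 727 TPM in the 5 Pax5+/+ samples, which did not overlap with either group. Its log2 fold change -0.61 ± 0.11 (SE), adjusted p = 0.0628 in ∆HD/∆HD cells missed the threshold in limma, and edgeR on the recovered reads called it lower in both genotypes, together with Cdk6 higher in ∆OP,HD/∆OP,HD cells; edgeR called 0 members in ∆OP/∆OP cells. In ∆OP/∆OP cells the members with the lowest p were Cdkn1a, the p53-induced CDK inhibitor p21, at 161 and 155 TPM (log2 fold change 0.41 ± 0.09, SE, limma adjusted p = 0.0975), and Ccnd3, at 1488 and 1648 TPM (log2 fold change 0.41 ± 0.09, SE, limma adjusted p = 0.0979).

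Loss of domain 2 also left no member called. The counts were 0 in ∆CRD2/- cells (background 0.577% and 0.39%) and 0 in ∆CRD2/∆CRD2 cells (background 0.101% and 0.0144%), with median log2 fold changes of 0.02 and -0.02. At an unadjusted p under 0.05 there were 2 higher and 2 lower members in ∆CRD2/- cells and 0 in ∆CRD2/∆CRD2 cells. Here too the share of all genes at the unadjusted threshold was not worked out. With edgeR 0 members were called in both genotypes. E2f2 had the lowest p in ∆CRD2/- cells, at 238 and 225 TPM against 314 to 395 TPM in Pax5+/+ (log2 fold change -0.45 ± 0.11 (SE), adjusted p = 0.0998, limma), and stood at 313 and 316 TPM in ∆CRD2/∆CRD2 cells. Without the term for read length E2f2 was called lower in ∆CRD2/- cells (limma adjusted p = 0.012).

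Loss of domain 1 went with a shift among the members rather than with a fall of all of them: Cdc25b, E2f2 and part of the mitotic genes fell, while D-type cyclins 1 and 2 and Cdk6 rose. In ∆CRD1/- cells 7 of the 54 members higher and 13 lower were called, where 5.05% and 5.88% of all genes were, and in ∆CRD1/∆CRD1 cells 3 of the 54 members higher and 13 lower, where 3.64% and 4.11% were. The members' median log2 fold change was -0.48 and -0.48, against 0.02 and -0.06 over all genes. In ∆CRD1/- cells the called count was 9 without Pax5+/+ replicate 4 (6 higher, 3 lower), 6 without ∆CRD1/- replicate 1 (4 higher, 2 lower) and 10 without ∆CRD1/- replicate 2. In ∆CRD1/∆CRD1 cells it was 5 without ∆CRD1/∆CRD1 replicate 1 and 9 without Pax5+/+ replicate 1.

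Cdc25b fell furthest with loss of domain 1. It stood at 727, 682, 643, 694 and 635 TPM in Pax5+/+ cells, 127 and 149.6 TPM in ∆CRD1/- and 199 and 225 TPM in ∆CRD1/∆CRD1 cells, with no overlap. The log2 fold change was -2.28 ± 0.15 (SE, adjusted p = 5.25e-07) and -1.68 ± 0.14 (adjusted p = 5.70e-06). E2f2 stood at 395, 336, 317, 314 and 393 TPM in Pax5+/+ cells, 112 and 128 TPM in ∆CRD1/- and 182 and 184 TPM in ∆CRD1/∆CRD1 cells, again without overlap (-1.40 and -1.03 on the log2 scale, adjusted p = 3.40e-06 and 3.08e-05). The mitotic kinases Plk1 and Aurka changed in ∆CRD1/- cells, by -1.12 and -1.10 on the log2 scale (adjusted p = 0.0233 and 0.0136). In ∆CRD1/∆CRD1 cells it was Cenpf, a kinetochore protein, and Ccna2, the S and G2 cyclin, that followed Cdc25b, at -1.19 and -1.11 (adjusted p = 0.0245 and 0.00585). Of the 24 mitotic and spindle members, 6 fell in ∆CRD1/- cells and 7 in ∆CRD1/∆CRD1 cells, and none rose. The calls of Plk1 and Aurka were each lost without Pax5+/+ replicate 3 or 4 or ∆CRD1/- replicate 1 or 2 (adjusted p up to 0.173 and 0.102). The call of Cenpf was lost without Pax5+/+ replicate 1 or 5 or ∆CRD1/∆CRD1 replicate 1 (adjusted p up to 0.41), and that of Ccna2 without ∆CRD1/∆CRD1 replicate 1 (up to 0.129).

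Of the 8 G1 cyclins and kinases, 3 rose in both ∆CRD1 genotypes, Ccnd1, Ccnd2 and Cdk6. Ccne1 fell in ∆CRD1/- cells, with a log2 fold change of -0.59 (adjusted p = 0.0464), and had -0.45 in ∆CRD1/∆CRD1 cells (adjusted p = 0.117). It was singled out after its values were seen. The call of Ccne1 was lost without Pax5+/+ replicate 1 or 3 or 4 or ∆CRD1/- replicate 1 or 2 (adjusted p up to 0.36). Ccnd2 stood at 97.2, 101, 79.6, 111 and 100.2 TPM in Pax5+/+ cells, 224 and 195 TPM in ∆CRD1/- and 179 and 189 TPM in ∆CRD1/∆CRD1 cells, and all 4 mutant samples lay above all 5 controls (log2 fold changes 1.15 ± 0.19 and 0.89 ± 0.17, SE, adjusted p = 0.000959 and 0.00487). Cdk6 was 103, 80.7, 51.3, 74.8 and 93.2 TPM in Pax5+/+ cells, 198 and 172 TPM in ∆CRD1/- and 171 and 191 TPM in ∆CRD1/∆CRD1 cells, without overlap (adjusted p = 0.000137 and 0.00401). Ccnd1 was 6.10, 4.27, 4.60, 4.75 and 5.47 TPM, 25.9 and 16.2 TPM and 11.7 and 14.2 TPM, respectively, also without overlap (adjusted p = 0.000776 and 0.0167). Cdt1, which loads the replicative helicase onto origins, and the helicase subunits Mcm6 and Mcm4 rose in ∆CRD1/- cells, by 0.70, 0.60 and 0.57 (adjusted p = 0.0256, 0.0477 and 0.012), as did E2f1, by 0.49 (adjusted p = 0.00941). E2f1 is a member that the term for read length itself called, and its adjusted p was 0.235 without that term. In ∆CRD1/∆CRD1 cells the log2 fold change of Mcm6 was 0.40, with an adjusted p of 0.192. The calls of Cdt1 and Mcm4 were each lost without Pax5+/+ replicate 3 or ∆CRD1/- replicate 1 or 2 (adjusted p up to 0.194 and 0.111), that of Mcm6 without Pax5+/+ replicate 3 or 4 or ∆CRD1/- replicate 1 or 2 (up to 0.29), and that of E2f1 without Pax5+/+ replicate 4 or ∆CRD1/- replicate 2 (up to 0.103). The call of Ccnd1 was lost without Pax5+/+ replicate 2 or ∆CRD1/∆CRD1 replicate 1 or 2 (adjusted p up to 0.175), and those of Ccnd2 and Cdk6 without ∆CRD1/∆CRD1 replicate 2 (up to 0.0641 and 0.0641).

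Among the CDK inhibitors, which restrain the G1 kinases, the log2 fold changes in ∆CRD1/- cells were Cdkn1a -0.59 (adjusted p = 0.0177), Cdkn1b -0.42 (0.259) and Cdkn2c -0.63 (0.0949). Those in ∆CRD1/∆CRD1 cells were Cdkn1a 0.27 (adjusted p = 0.287), Cdkn1b -0.48 (0.171) and Cdkn2c -0.71 (0.0498). Cdkn1b codes for p27 and Cdkn2c for p18, an inhibitor of Cdk4 and Cdk6. The levels of Cdkn1b in Pax5+/+ cells spread from 158 to 345 TPM, with the 100-nucleotide replicates lowest. Ccnd3, the most abundant D-type cyclin, stood at 826 and 874 TPM in ∆CRD1/- cells against 1105 to 1501 TPM in Pax5+/+ (log2 fold change -0.47 ± 0.20 (SE), adjusted p = 0.161). Without the term for read length, Cdkn1b, Cdkn2c and Ccnd3 were called lower in ∆CRD1/- cells (limma adjusted p = 0.0253, 0.00825 and 0.0344). Mki67 was 201 and 186 TPM in ∆CRD1/- and 157 and 220.1 TPM in ∆CRD1/∆CRD1 cells, at or within the range of Pax5+/+ cells, and was called in neither (adjusted p = 0.711 and 0.26). The call of Cdkn1a was lost without Pax5+/+ replicate 3 or ∆CRD1/- replicate 1 (adjusted p up to 0.208). The call of Cdkn2c was lost without Pax5+/+ replicate 1 or 3 or 4 or 5 or ∆CRD1/∆CRD1 replicate 1 or 2 (adjusted p up to 0.474).

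With both C-terminal domains gone, mitotic and spindle genes fell, the D-type cyclins 1 and 2 rose, and so did part of the replication genes. In ∆CRD1,2/- cells 11 of the 54 members higher and 28 lower were called (background 9.3% and 14.2%), and in ∆CRD1,2/∆CRD1,2 cells 7 of the 54 members higher and 30 lower (background 9.95% and 14.1%). The median log2 fold change was -0.74 and -0.91, against -0.04 and 0.00 over all genes. In ∆CRD1,2/- cells 11 of 14 chromosome and spindle genes and 8 of 10 mitotic cyclins and kinases fell, with medians of -0.97 and -1.08. Of the replication genes, 6 of 14 rose and 2 fell, with a median of 0.41. In ∆CRD1,2/∆CRD1,2 cells 3 of 14 replication genes rose and 2 fell. The count in ∆CRD1,2/- cells was 24 without Pax5+/+ replicate 4 and 23 without ∆CRD1,2/- replicate 2.

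Cdc25b stood at 31.7 and 39.04 TPM in ∆CRD1,2/- and 48.7 and 41.2 TPM in ∆CRD1,2/∆CRD1,2 cells, below every ∆CRD1 sample, with log2 fold changes of -4.24 ± 0.15 and -3.90 ± 0.15 (SE, adjusted p = 5.77e-10 and 2.62e-09). E2f2 was 69.3 and 84.9 TPM and 77.01 and 75.7 TPM (adjusted p = 3.53e-08 and 4.90e-08). Plk1 was 78.2 and 96.7 TPM and 54.3 and 67.6 TPM, against 232, 160.4, 255, 287 and 328 TPM in Pax5+/+ cells, without overlap (log2 fold changes -1.64 ± 0.29 and -2.16 ± 0.29, SE, adjusted p = 0.000964 and 0.000108). Aurka, which matures the spindle poles, followed with -1.57 and -2.03 (adjusted p = 0.000548 and 6.78e-05). These 4 genes took the largest called falls in both genotypes. Mki67 was 157 and 138 TPM and 113 and 129 TPM, with log2 fold change -0.62 ± 0.29 (SE), adjusted p = 0.143 in ∆CRD1,2/- and adjusted p = 0.0355 in ∆CRD1,2/∆CRD1,2 cells. Without the term for read length, its limma adjusted p in ∆CRD1,2/- cells was 0.0208. The call of Mki67 was lost without Pax5+/+ replicate 4 or ∆CRD1,2/∆CRD1,2 replicate 1 or 2 (adjusted p up to 0.335).

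The balance among the D-type cyclins shifted in both ∆CRD1,2 genotypes, with Ccnd3 still the most abundant of them. Ccnd2 was 295 and 250.4 TPM in ∆CRD1,2/- and 226 and 267 TPM in ∆CRD1,2/∆CRD1,2 cells (log2 fold changes 1.53 ± 0.19 and 1.39 ± 0.19, SE, adjusted p = 4.18e-05 and 0.000105). Cdk6 was 183 and 194 TPM and 175 and 181 TPM (adjusted p = 5.14e-05 and 8.69e-05). Ccnd1 was 8.35 and 13.9 TPM in ∆CRD1,2/- and higher, 30.03 and 31.2 TPM, in ∆CRD1,2/∆CRD1,2 cells (adjusted p = 0.0182 and 5.11e-05 against Pax5+/+). Ccnd3 fell in both, to 402 and 688 TPM and 416 and 444 TPM (log2 fold changes -1.16 ± 0.20 and -1.45 ± 0.20, SE, adjusted p = 0.000658 and 0.000111). The inhibitors in ∆CRD1,2/- cells had log2 fold changes of Cdkn1a -0.34 (adjusted p = 0.117), Cdkn1b -0.998 (0.00349) and Cdkn2c -1.44 (0.000351), and in ∆CRD1,2/∆CRD1,2 cells of Cdkn1a -0.39 (adjusted p = 0.0692), Cdkn1b -0.73 (0.0216) and Cdkn2c -1.35 (0.000627). Without the term for read length Cdkn1a was called in both genotypes (limma adjusted p = 0.0158 and at most 0.0354). The call of Ccnd1 was lost without Pax5+/+ replicate 3 or 4 or ∆CRD1,2/- replicate 2 (adjusted p up to 0.154). The call of Cdkn1b was lost without Pax5+/+ replicate 3 or 4 or ∆CRD1,2/∆CRD1,2 replicate 2 (adjusted p up to 0.226).

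Among the replication genes, those that rose act in licensing. In ∆CRD1,2/- cells Cdt1 and Cdc6, which load the helicase, changed by 0.82 and 0.62 (adjusted p = 0.0051 and 0.0216), and the helicase subunits Mcm6, Mcm3, Mcm4 and Mcm7 by 0.59, 0.58, 0.54 and 0.47 (adjusted p = 0.0301, 0.0414, 0.00842 and 0.0492). E2f1 and Cdk4 rose with them, by 0.56 and 0.39 (adjusted p = 0.00209 and 0.0471). In ∆CRD1,2/∆CRD1,2 cells the risers were Cdt1 (0.72), Cdc6 (0.61), Mcm4 (0.43) and E2f1 (0.47), with adjusted p = 0.0112, 0.0218, 0.0293 and 0.00652. Without the term for read length the adjusted p of E2f1 was 0.0866 and 0.225, so that its call was lost in both genotypes. Mcm6 stood at 387, 268, 349, 419 and 367 TPM in Pax5+/+ and 551 and 599 TPM in ∆CRD1,2/- cells, which did not overlap. The call of Cdt1 was lost without Pax5+/+ replicate 3 or ∆CRD1,2/- replicate 2 (adjusted p up to 0.0618), those of Cdc6 and Mcm6 without Pax5+/+ replicate 3 or ∆CRD1,2/- replicate 1 or 2 (up to 0.197 and 0.187), and that of Mcm3 without Pax5+/+ replicate 3 or 4 or ∆CRD1,2/- replicate 1 or 2 (up to 0.191). The call of Mcm4 was lost without Pax5+/+ replicate 3 (adjusted p up to 0.0712), and those of Mcm7 and Cdk4 without Pax5+/+ replicate 1 or 3 or 4 or ∆CRD1,2/- replicate 1 or 2 (up to 0.151 and 0.208). The call of Cdt1 was lost without Pax5+/+ replicate 3 or ∆CRD1,2/∆CRD1,2 replicate 2 (adjusted p up to 0.102), and those of Cdc6 and Mcm4 without Pax5+/+ replicate 3 or ∆CRD1,2/∆CRD1,2 replicate 1 or 2 (up to 0.212 and 0.179).

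**Figure D2:**
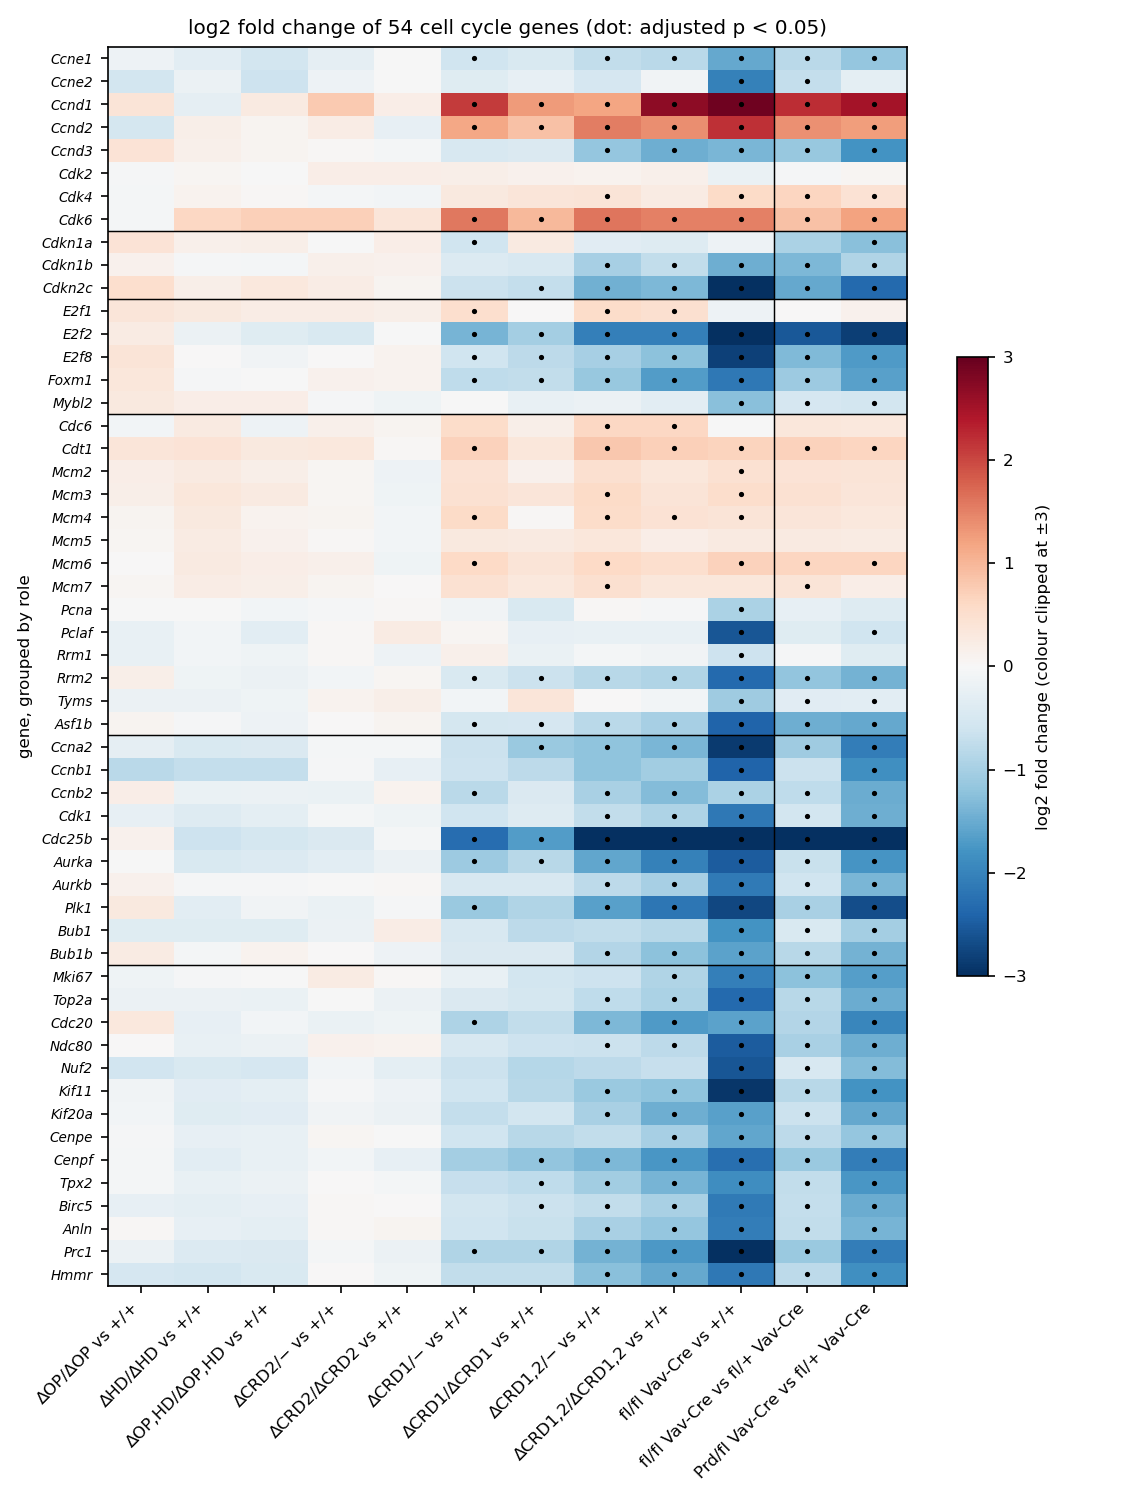
Fitted log2 fold change (colour, clipped at 3 in either direction) of the 54 genes (rows, grouped by role) in 12 genotype comparisons (columns), with a dot where limma's adjusted p is under 0.05. The columns of ∆OP, ∆HD, ∆OP,HD and ∆CRD2 hold no dot, while Cdc25b and E2f2 carry a blue dotted cell in each of the 7 other columns and reach -5.29 and -3.71 in Vav-Cre fl/fl progenitors.

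In Pax5-deficient progenitors, 9 of the 54 members higher and 39 lower were called against Pax5+/+ pro-B cells, where 18.8% and 16.1% of all genes were called higher and lower, and the members' median log2 fold change was -1.71 against 0.00 over all genes. All 14 chromosome and spindle genes and all 10 mitotic cyclins and kinases fell, with medians of -2.14 and -2.28. Transcription factors fell in 4 of 5 cases (median -2.15). Replication genes were split, with 5 higher and 6 lower of 14. Over all members, the share that rose (16.7%) was near that of all genes (18.8%). Leaving out single libraries gave 43 to 49 called members.

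Cdc25b was 19.4 and 15.3 TPM in the progenitors, -5.29 ± 0.14 (SE) on the log2 scale from Pax5+/+ cells (adjusted p = 8.17e-12), and E2f2 was 29.9 and 27.2 TPM (-3.71, adjusted p = 1.99e-11). Prc1, whose promoter is printed above, was 14.2 and 11.3 TPM against 143, 88.9, 97.6, 168 and 120.4 TPM in Pax5+/+ cells (log2 fold change -3.18 ± 0.24 (SE), adjusted p = 2.14e-07). Cdkn2c was 12.3 and 15.5 TPM against 141, 97.3, 75.5, 95.1 and 133 TPM (log2 fold change -3.14 ± 0.21 (SE), adjusted p = 5.01e-08). None of these groups overlapped. Mki67 fell to 62.9 and 69.1 TPM (log2 fold change -2.05 ± 0.26 (SE), adjusted p = 3.28e-05).

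The balance among the D-type cyclins differed between the progenitors and Pax5+/+ cells. Ccnd1 was 28.2 and 56.6 TPM (log2 fold change 2.91 ± 0.30 (SE), adjusted p = 4.13e-06). Ccnd2 was 465 and 438 TPM (log2 fold change 2.18 ± 0.17 (SE), adjusted p = 2.50e-07), and Cdk6 219 and 318 TPM (log2 fold change 1.52 ± 0.18, SE, adjusted p = 1.63e-05). Ccnd3 fell to 516 and 480.0 TPM (log2 fold change -1.36 ± 0.18, SE, adjusted p = 3.98e-05), so that the mean level of Ccnd2 came to 451 TPM beside 498 TPM for Ccnd3, against 97.7 and 1244 TPM in Pax5+/+ cells. The other members that rose were Cdk4 (0.57), Mcm6 (0.69), Cdt1 (0.67), Mcm3 (0.53), Mcm2 (0.46) and Mcm4 (0.40), with adjusted p = 0.00204, 0.00479, 0.00664, 0.0314, 0.0281 and 0.019. Without the term for read length Cdk4 had an adjusted p of 0.0513. Of the inhibitors, Cdkn1b was 86.4 and 118 TPM (log2 fold change -1.47 ± 0.19 (SE), adjusted p = 3.77e-05) and Cdkn1a 113 and 127 TPM (log2 fold change -0.15 ± 0.13, SE, adjusted p = 0.445). The call of Cdt1 was lost without Vav-Cre fl/fl replicate 1 (adjusted p up to 0.124), that of Mcm3 without Pax5+/+ replicate 2 or Vav-Cre fl/fl replicate 1 (up to 0.245), and that of Mcm2 without Pax5+/+ replicate 1 or 2 or Vav-Cre fl/fl replicate 1 (up to 0.212). The call of Mcm4 was lost without Pax5+/+ replicate 2 or Vav-Cre fl/fl replicate 1 or 2 (adjusted p up to 0.107).

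**Figure D3:**
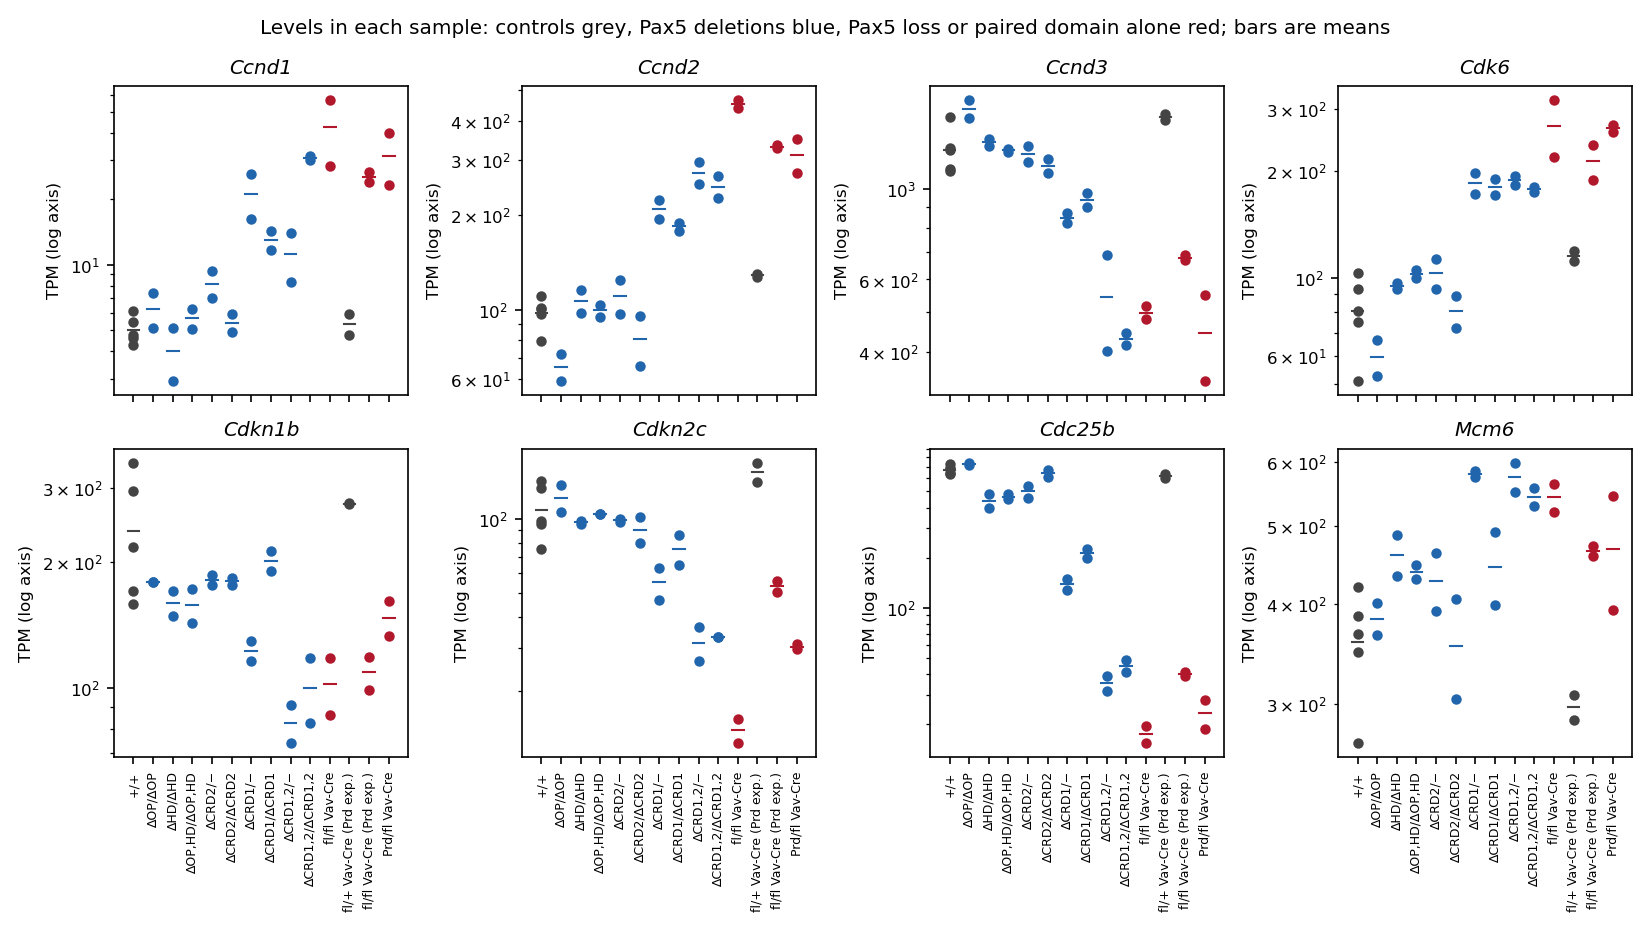
TPM of 8 members (log vertical axis) in every sample (points, with bars at the mean) of the 14 pro-B and progenitor groups. Ccnd1, Ccnd2 and Cdk6 lie higher and Ccnd3 and Cdc25b lower in every ∆CRD1, ∆CRD1,2 and progenitor sample than in every Pax5+/+ sample, with Cdc25b at 676 TPM in Pax5+/+ and 17.4 TPM in Vav-Cre fl/fl cells.

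Against ∆CRD1,2/- cells, which went through the same gate, the Vav-Cre fl/fl progenitors had 1 of the 54 members higher and 20 lower called (background 2.24% and 1.41%), with a median of -0.92 against 0.07 over all genes. The count was 13 without ∆CRD1,2/- replicate 1. Pclaf, a partner of PCNA at replication forks, stood at 272 and 257 TPM in ∆CRD1,2/- cells, just below the Pax5+/+ samples (282 to 468 TPM), and at 53.4 and 67.7 TPM in the progenitors (log2 fold change -2.36 ± 0.26 (SE), adjusted p = 0.000218). The kinetochore gene Ndc80, the spindle motor Kif11 and the repressor E2f8 changed by -1.86, -1.81 and -1.80 on the log2 scale (adjusted p = 0.00181, 0.0185 and 0.000307). From these same samples, the study had already named Pclaf, Ndc80 and Kif11 as genes lost with Pax5 but little affected by the C-terminal deletions. Cdkn2c changed by -1.69 (adjusted p = 0.00835), whereas Cdkn1b (-0.48) and Cdkn1a (0.19) were not called (adjusted p = 0.461 and 0.72). Ccnd1 alone rose, by 1.73 ± 0.45 (SE, adjusted p = 0.0491). Ccnd2 (0.65), Cdk6 (-0.08), Ccnd3 (-0.20) and Mki67 (-1.43) were not called (adjusted p = 0.199, 0.935, 0.8 and 0.063). These 2 groups differ in read length, which the model carries as a term. Without this term Ccnd2 and Mki67 were called (limma adjusted p = 0.0142 and at most 0.0433). The call of Kif11 was lost without Vav-Cre fl/fl replicate 1 or ∆CRD1,2/- replicate 1 (adjusted p up to 0.0857), and that of Ccnd1 without Vav-Cre fl/fl replicate 2 or ∆CRD1,2/- replicate 1 (up to 0.191).

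The Prd experiment compared progenitors without Pax5, or with its paired domain alone, with Vav-Cre fl/+ pro-B cells. In Vav-Cre fl/fl progenitors 7 of the 54 members higher and 35 lower were called (background 20.8% and 19.1%), and in Prd/fl progenitors 6 of the 54 members higher and 37 lower (background 24.1% and 16.6%). Medians were -0.72 and -1.39, against 0.00 and 0.08 over all genes. The shares of members that rose, 13.0% and 11.1%, were below those of all genes. All 14 chromosome and spindle genes fell in both comparisons, with medians of -0.81 and -1.59. Cdc25b stood at 632 and 600.0 TPM in fl/+, 41.4 and 38.97 TPM in fl/fl and 28.1 and 18.8 TPM in Prd/fl cells (log2 fold changes -3.94 ± 0.18 and -4.74 ± 0.18, SE, adjusted p = 3.65e-05 and 2.52e-05). E2f2 was 334 and 334 TPM, 56.8 and 58.3 TPM and 38.2 and 57.2 TPM (adjusted p = 0.000144 and 8.86e-05). For both genes the progenitors lay below the fl/+ cells without overlap.

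Ccnd1, Ccnd2 and Cdk6 rose and Ccnd3 fell in both kinds of progenitor. Ccnd1 was 4.75 and 5.95 TPM in fl/+, 23.9 and 26.6 TPM in fl/fl and 39.8 and 23.2 TPM in Prd/fl cells (log2 fold changes 2.22 ± 0.26 and 2.49 ± 0.26, SE, adjusted p = 0.00102 and 0.000634). Ccnd2 was 130.0 and 127 TPM, 335 and 326 TPM and 272 and 349 TPM (adjusted p = 0.000361 and 0.000468), and Cdk6 rose by 0.88 and 1.199 (adjusted p = 0.00169 and 0.000494). Ccnd3 was 1476 and 1526 TPM, 668 and 689 TPM and 339.8 and 549.6 TPM (adjusted p = 0.00571 and 0.00095), lower in each progenitor sample than in each fl/+ sample. The other risers were Cdt1, Mcm6, Cdk4 and Mcm7 in fl/fl cells (0.69, 0.65, 0.65 and 0.40, adjusted p = 0.0108, 0.0152, 0.00106 and 0.0363) and Cdt1, Mcm6 and Cdk4 in Prd/fl cells (0.64, 0.64 and 0.42, adjusted p = 0.0141, 0.0158 and 0.00579). Log2 fold changes of the inhibitors were Cdkn1a -0.96 (adjusted p = 0.103), Cdkn1b -1.34 (0.000435) and Cdkn2c -1.53 (0.00017) in fl/fl, and Cdkn1a -1.25 (adjusted p = 0.0468), Cdkn1b -0.91 (0.00195) and Cdkn2c -2.34 (4.34e-05) in Prd/fl cells. Asf1b, a histone chaperone, changed by -1.47 in fl/fl cells (adjusted p = 0.000452), and Mki67 by -1.24 and -1.65 (adjusted p = 0.000317 and 9.87e-05). The call of Ccnd3 was lost without fl/+ replicate 2 or fl/fl replicate 1 (adjusted p up to 0.0592), and those of Cdt1, Mcm6 and Mcm7 without fl/+ replicate 1 or 2 or fl/fl replicate 1 or 2 (up to 0.0872, 0.119 and 0.199). The calls of Cdk4, Cdt1 and Mcm6 were each lost without fl/+ replicate 1 or 2 (adjusted p up to 0.0839, 0.102 and 0.123), and that of Cdkn1a without Prd/fl replicate 1 or fl/+ replicate 1 or 2 (up to 0.194).

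Between the progenitors of this experiment, 0 of the 54 members higher and 18 lower were called in Prd/fl against fl/fl cells (background 1.17% and 0.796%), with a median of -0.38 against 0.07 over all genes. The fall was mainly in mitotic genes (7 of 10 mitotic cyclins and kinases, 9 of 14 chromosome and spindle genes), and 0 of 14 replication genes were called. Plk1 was 133 and 127 TPM in fl/fl and 43.9 and 37.4 TPM in Prd/fl cells (log2 fold change -1.68 ± 0.10 (SE), adjusted p = 0.00206). Cdc20, which activates the anaphase-promoting complex, changed by -1.09, Aurka by -1.09 and Hmmr, a spindle assembly protein, by -1.06 (adjusted p = 0.00817, 0.0113 and 0.0419). Cdkn2c changed by -0.80 (adjusted p = 0.0253), while Ccnd1 (0.27), Ccnd2 (-0.10), Cdk6 (0.32), Ccnd3 (-0.65), Cdkn1a (-0.29), Cdkn1b (0.43) and Mki67 (-0.42) were not called. The called count was 34 without Prd/fl replicate 2 and 0 without either fl/fl replicate 1 or replicate 2, so with the lone fl/fl sample assumed to vary like the other groups no member was called. The calls of Plk1, Cdc20, Aurka and Hmmr were each lost without fl/fl replicate 1 or 2 (adjusted p up to 0.0963, 0.127, 0.172 and 0.282), and that of Cdkn2c without Prd/fl replicate 1 or fl/fl replicate 1 or 2 (up to 0.199).

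The genotype Vav-Cre Pax5 fl/fl occurred in both experiments, each against its own control. In a model of all 31 samples, a comparison added after the data had been seen, the change in the first experiment was lower than that in the Prd experiment for 24 members and higher for 0 (background 0.383% higher, 0.745% lower), with a median difference of -0.88 against 0.03 over all genes. Pclaf differed most, by -2.22 ± 0.23 (SE, adjusted p = 2.01e-05). It stood at 53.4 and 67.7 TPM in the fl/fl progenitors of the first experiment and 133 and 136 TPM in those of the Prd experiment, while the controls stood at 468, 289.8, 282, 335 and 341 TPM (Pax5+/+) and 189 and 158 TPM (fl/+). Nuf2, a partner of Ndc80 at kinetochores, differed by -2.09 ± 0.43 (SE, adjusted p = 0.015), Kif11 by -2.08 ± 0.33 (SE, adjusted p = 0.00188), Prc1 by -2.06 ± 0.32 (SE, adjusted p = 0.00146) and Aurka by -1.81 ± 0.30 (SE, adjusted p = 0.00305). Plk1 was 39.1 and 30.4 TPM in the fl/fl progenitors of the first experiment and 133 and 127 TPM in the others, without overlap. The sets differ in control genotype and in read length as sequenced (50 and 100 nucleotides, trimmed to 50 for alignment). These cannot be told apart here from other differences between the experiments. Summed plasmacytoid dendritic cell markers (6 genes, none at 0) were 809 to 1243 TPM in the first set and 444 to 554 TPM in the second, and their part in the difference was not tested.

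Summed levels of marker lists of other cells differed between the groups, and single genes carried most of the difference. The 6 lymphoid-primed progenitor markers summed to 95.6 to 125 TPM in Pax5+/+, 393 to 452 TPM in ∆CRD1/-, 573 to 659.6 TPM in ∆CRD1,2/- and 681 to 819 TPM in Vav-Cre fl/fl cells, and to 83.4 to 96.3 TPM in fl/+, 567 to 579 TPM in fl/fl and 585 to 638 TPM in Prd/fl cells. Flt3, a gene that Pax5 represses, went from a mean of 14.9 TPM in Pax5+/+ to 464 TPM in Vav-Cre fl/fl cells, and Ly6a from 16.8 to 213 TPM. Kit (61.7 and 56.2 TPM) and Meis1 (16.3 and 9.81 TPM) were not higher there, and Hlf had means of 0.349 and 0.460 TPM. The 9 early T cell markers summed to 136 to 187 TPM in Pax5+/+ and 535 to 606 TPM in Vav-Cre fl/fl cells. The difference came mainly from Notch1 (means of 79.2 and 354 TPM), Tcf7 (43.8 and 119.7 TPM) and Il2ra (6.49 and 46.1 TPM). Il2ra is a gene that Pax5 represses, whereas the study held the repression of Notch1 in pro-B cells to be probably independent of Pax5. Cd3e, Cd3g, Bcl11b and Ptcra, which mark T cells, did not exceed 0.761 TPM in either group. The 6 small pre-B cell markers summed to 181 to 389 TPM in Pax5+/+ and 103 to 122 TPM in Vav-Cre fl/fl cells. Granulocyte markers (10 genes) varied within groups, from 728 to 6496 TPM in Pax5+/+ and 1008 to 15672 TPM in ∆CRD2/- cells. They also differed between groups. Both ∆CRD1/- samples (159 to 350 TPM) lay below every Pax5+/+ sample, and both ∆OP/∆OP samples (6630 to 7040 TPM) above every one. The part of these cells in the members' changes was not tested.

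Genes of the same pathways outside the 54 members were followed as 3 lists. Of 42 other mitosis genes, 10 fell in ∆CRD1/-, 28 in ∆CRD1,2/- and 40 in Vav-Cre fl/fl cells, with medians of -0.55, -0.86 and -1.72, and none rose, where 5.88%, 14.2% and 16.1% of all genes were called lower. Ube2c, the ubiquitin-conjugating enzyme of the anaphase-promoting complex, changed by -1.36 ± 0.32 (SE) on the log2 scale in ∆CRD1/-, -2.17 ± 0.32 in ∆CRD1,2/- and -3.30 ± 0.29 in Vav-Cre fl/fl cells (adjusted p = 0.0132, 0.000208 and 8.15e-07). In the Prd experiment 33 of the 42 fell and 1 rose in fl/fl cells, and 40 fell in Prd/fl cells (background lower 19.1% and 16.6%). Of 32 other replication genes, 6 rose and 0 fell in ∆CRD1,2/- cells (background 9.3% and 14.2%), whereas 0 rose and 9 fell in Vav-Cre fl/fl cells (background 18.8% and 16.1%). In the Prd experiment 8 of the 32 rose and 2 fell in fl/fl cells (background 20.8% and 19.1%). In Prd/fl cells 6 rose and 1 fell (background 24.1% and 16.6%). The shares that rose in this experiment were thus near those of all genes. Cdc7, the kinase that fires origins, rose by 1.23 ± 0.27 (SE, adjusted p = 0.0041) in ∆CRD1,2/- cells, and its activator Dbf4 changed by -1.06 ± 0.17 (SE, adjusted p = 0.00024) in Vav-Cre fl/fl cells. Of 19 other brakes tested, 9 fell in ∆CRD1,2/- and 13 in Vav-Cre fl/fl cells, among them the inhibitor Cdkn2d, by -2.18 ± 0.16 and -2.63 ± 0.15 (SE, adjusted p = 4.18e-07 and 9.85e-09). None of the other mitosis or replication genes was called in the central domain or ∆CRD2 comparisons.

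Across the T-lineage stages the members' levels rose and fell by turns, and the D-type cyclins, Cdk6 and the inhibitors had courses of their own. Division itself was not measured in these samples. Here 46 members were tested. The mean over the 46 genes of log2(TPM + 0.1) was 5.82 to 6.10 in LMPPs, 5.51 to 5.76 in DN1, 5.52 to 6.14 in DN2a, 6.25 to 6.72 in DN2b, 5.26 to 5.58 in DN3a and 7.03 to 7.15 in DN3b cells, and 4.08 to 4.24 in Rag2-/- DN3a cells. DN2a samples overlapped with both LMPPs and DN1 on this scale, DN3a samples overlapped with DN1, and DN3b cells lay above every other stage.

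**Figure D4:**
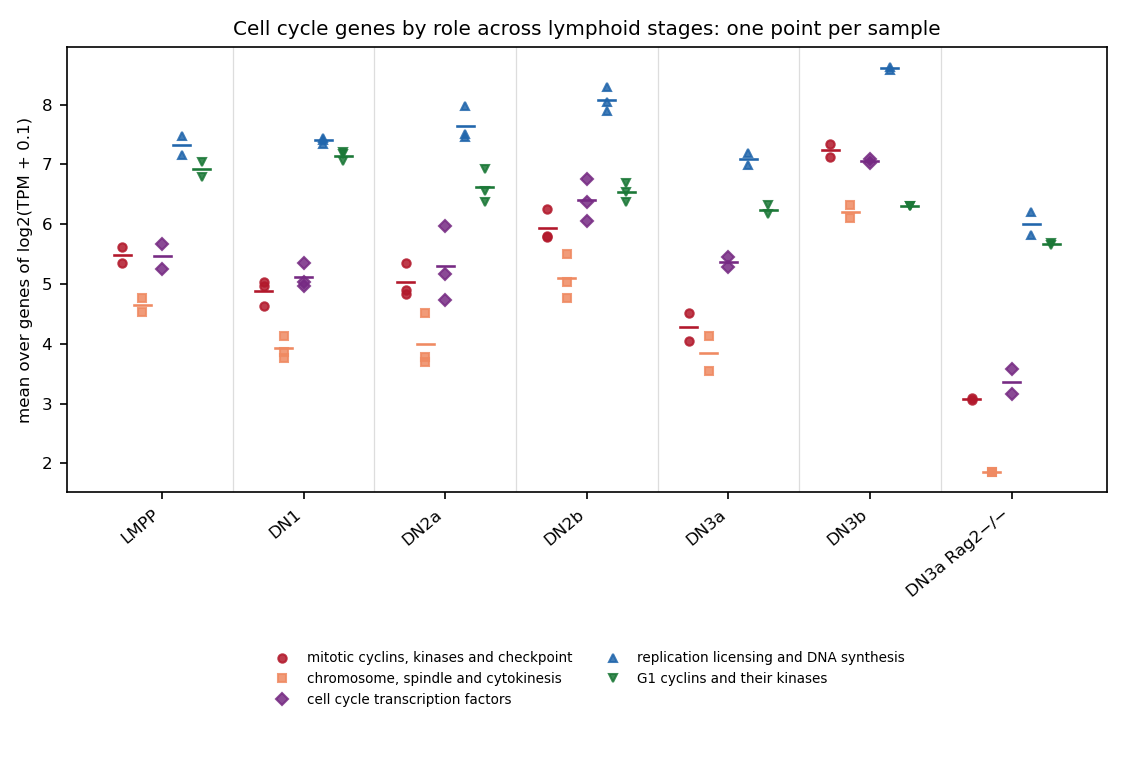
Mean over the members of each role of log2(TPM + 0.1) (vertical axis) in every sample of each lymphoid stage (horizontal axis). Mitotic and spindle genes rise at DN2b, drop at DN3a and peak at DN3b, and the Rag2-/- DN3a samples are lowest, with the 46-gene mean at 7.03 to 7.15 in DN3b and 4.08 to 4.24 in Rag2-/- DN3a cells.

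From LMPP to DN1, 1 of the 46 members higher and 10 lower were called (background 6.73% and 11.9%), with a median of -0.41 against -0.05 over all genes. Of the chromosome and spindle genes 5 of 12 fell. Cdk1, the mitotic kinase, changed by -0.99, Ndc80 by -0.93 and Prc1 by -1.09 (adjusted p = 0.00116, 0.00192 and 0.0139), and Cdk6 rose by 1.08 (adjusted p = 0.012). The called count was 6 without LMPP replicate 1, 5 without LMPP replicate 2, 6 without the first and 7 without the second of the DN1 libraries numbered 2. The call of Cdk6 was lost without LMPP replicate 1 (adjusted p up to 0.224), and that of Prc1 without DN1 replicate 2 (the first so numbered) or LMPP replicate 2 (up to 0.138). From DN1 to DN2a, where all genes shifted by a median of -0.18, 11 of the 46 members higher and 3 lower were called (background 10.9% and 22.9%). A rescaling to the median of ratios moved the all-gene median by 0.15 and gave 15 higher and 2 lower.

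Ccnd1 and Cdkn1a made the largest moves at the DN1 to DN2a step. Ccnd1 stood at 51.2 and 73.96 TPM in LMPPs, 59.9, 55.4 and 58.95 TPM in DN1 and 3.80, 4.14 and 5.23 TPM in DN2a cells, and did not exceed 3.77 TPM in any later sample. Its log2 fold change at the step was -3.71 ± 0.19 (SE, adjusted p = 3.69e-08). Cdkn1a stood at 13.5, 9.37 and 9.97 TPM in DN1 and 50.05, 62.3 and 86.2 TPM in DN2a cells (log2 fold change 2.57 ± 0.23 (SE), adjusted p = 3.08e-06), again without overlap. Ccne1, the cyclin of S phase entry, rose by 1.11, and the nucleotide synthesis genes Rrm2 and Tyms by 0.93 and 0.90 (adjusted p = 0.000662, 0.000779 and 0.000129). Ccnd2 and Cdkn1b changed by -0.81 and -0.42 (adjusted p = 0.0038 and 0.00936). Mki67, at 17.8, 24.1 and 73.4 TPM in DN2a cells, was not called (adjusted p = 0.252), with the DN2a library labelled replicate 2 above the other 2. Marker sums of other cells fell at the same step. Granulocyte markers (10 genes) summed to 1801 to 2058 TPM in DN1 and 468 to 509 TPM in DN2a cells. Erythroid markers (8 genes found) summed to 298 to 307 TPM and 46.8 to 53.2 TPM. The part of such cells in the members' changes was not tested.

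From DN2a to DN2b, the step of T cell commitment, 26 of the 46 members higher and 1 lower were called (background 9.8% and 8.43%), with a median of 0.61 against 0.08 over all genes. Of the chromosome and spindle genes 11 of 12 rose, of the mitotic cyclins and kinases 7 of 9, and of the replication genes 4 of 13. E2f2 was 16.2, 24.3 and 41.8 TPM in DN2a and 134, 85.9 and 92.6 TPM in DN2b cells, without overlap (log2 fold change 2.00 ± 0.28 (SE), adjusted p = 0.000174). Mki67 was 177, 62.4 and 85.8 TPM in DN2b cells (log2 fold change 1.63 ± 0.46, SE, adjusted p = 0.0224), and overlapped with DN2a. Cenpf and Plk1 rose by 1.53 and 1.49 (adjusted p = 0.0173 and 0.00626), and Cdkn2c and Cdkn1b by 1.44 and 0.62 (adjusted p = 0.0075 and 0.000949). Ccnd1 was the member that fell (-0.95, adjusted p = 0.00286). The count was 16 without the first of the DN2a libraries numbered 1 and 17 without DN2b replicate 1. The calls of Mki67 and Cenpf were each lost without DN2a replicate 1 (the first so numbered) or 1 (the second so numbered) or DN2b replicate 1 (adjusted p up to 0.106 and 0.085).

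From DN2b to DN3a the direction turned, with 2 of the 46 members higher and 33 lower called (background 31.4% and 14.4%) and a median of -1.12 against 0.27 over all genes. All 9 mitotic cyclins and kinases tested fell, with 10 of 13 replication genes and 9 of 12 chromosome and spindle genes. Ccnb2, a mitotic cyclin, changed by -2.16, Birc5 (survivin) by -2.15, and Aurkb, its partner kinase, by -2.07 (adjusted p = 2.27e-07, 5.35e-07 and 3.40e-05). The risers were Cdkn1a, from 89.1, 49.9 and 65.7 TPM to 183 and 204 TPM, and Ccnd2, from 191, 133 and 142 TPM to 301 and 357 TPM (log2 fold changes 1.54 ± 0.26 and 1.09 ± 0.20, SE, adjusted p = 0.000379 and 0.000613), both without overlap.

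The DN3a to DN3b step, at which cells with a pre-T cell receptor start to divide, called nearly every member: 40 of the 46 members higher and 5 lower (background 14.2% and 39.2%), with a median of 2.15 against -0.41 over all genes. All 13 replication genes, all 12 chromosome and spindle genes and all 9 mitotic genes tested rose, with medians of 1.53, 2.26 and 2.65. Plk1 went from 24.9 and 33.5 TPM to 345 and 376 TPM (log2 fold change 3.64 ± 0.41 (SE), adjusted p = 6.82e-06), and Mki67 from 47.8 and 76.8 TPM to 261 and 315 TPM (log2 fold change 2.24 ± 0.56 (SE), adjusted p = 0.0039). Aurkb, Ccnb1 and Birc5 rose by 3.60, 3.27 and 3.27 (adjusted p = 2.93e-07, 1.21e-05 and 1.46e-08). DN3b cells were sorted by CD28 and CD71, and the mRNA of CD71, Tfrc, which is itself high in dividing cells, was 27.8 to 28.7 TPM in DN3a and 46.3 to 54.1 TPM in DN3b cells. Its part in the result was not tested. A rescaling moved the all-gene median by 0.32, and the counts of members stayed at 45.

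The 5 members that fell at this step all act in G1. Cdkn1a dropped to 16.6 and 24.1 TPM (log2 fold change -3.27 ± 0.29 (SE), adjusted p = 7.25e-07). Ccnd2 dropped to 76.2 and 86.97 TPM (log2 fold change -2.01 ± 0.22, SE, adjusted p = 4.66e-06) and Cdk6 from 293 and 353 TPM to 137 and 136 TPM (adjusted p = 0.00321), while Cdkn1b and Ccnd1 changed by -0.93 and -0.60 (adjusted p = 4.89e-05 and 0.0443). Cdkn2c stood at 30.2 and 19.5 TPM in DN3a and 49.4 and 42.5 TPM in DN3b cells, and was not called (adjusted p = 0.0757). Ccnd3, whose row carries a mark for overlap with another gene and was left out of the counts, stood at 257 and 222 TPM in DN3a and 657 and 582 TPM in DN3b cells. The call of Ccnd1 was lost without DN3a replicate 1 or 2 or DN3b replicate 2 (adjusted p up to 0.352).

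**Figure D5:**
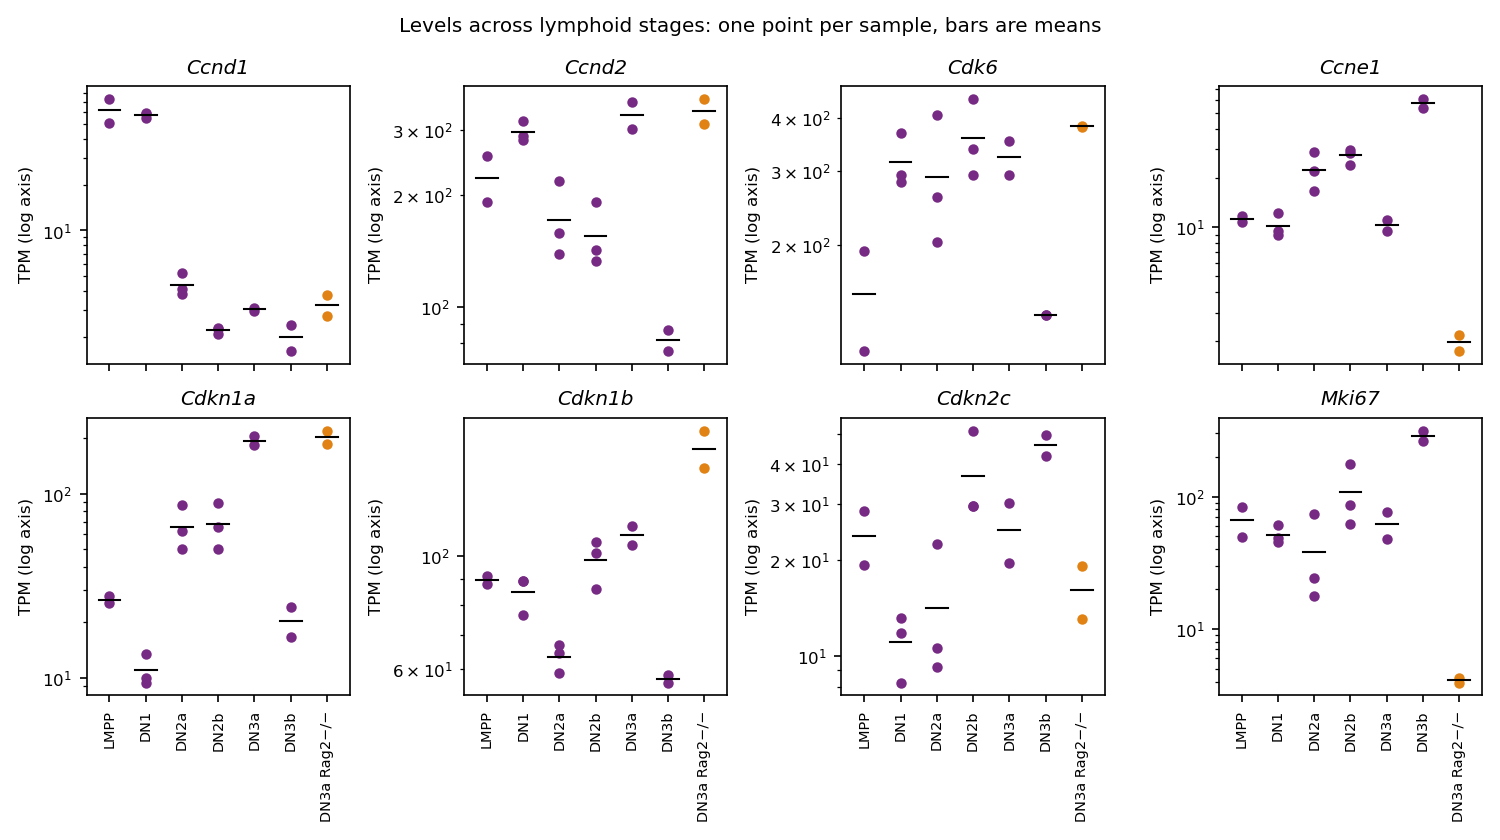
TPM of 8 members (log vertical axis) in every sample (points, with bars at the mean) of the 7 lymphoid groups, with Rag2-/- DN3a in orange. Ccnd1 leaves after DN1 (58.1 to 4.39 TPM), Cdkn1a peaks at DN3a (194 TPM), and Mki67 falls to 4.10 TPM in Rag2-/- DN3a cells.

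In DN3a cells of Rag2-/- mice, 1 of the 46 members higher and 37 lower were called against wild-type DN3a cells (background 6.91% and 19.5%), with a median of -1.30 against -0.18 over all genes. All 12 chromosome and spindle genes fell. Mki67 went from 47.8 and 76.8 TPM to 4.29 and 3.91 TPM (log2 fold change -3.85 ± 0.56 (SE), adjusted p = 0.000402), and the kinetochore genes Cenpe and Cenpf and the repressor E2f8 changed by -3.23, -2.74 and -2.82 (adjusted p = 0.000247, 0.00164 and 0.000369). Cdkn1b was the member that rose (0.56, adjusted p = 0.00755), while Cdkn1a stood at 187 and 219.9 TPM (adjusted p = 0.904) and Ccnd2 at 364 and 312 TPM (adjusted p = 0.93), close to wild-type DN3a cells. Tfrc mRNA was 3.53 to 3.89 TPM in these cells, and its part in the result was not tested. The count was 23 without DN3a replicate 2. The call of Cdkn1b was lost without DN3a replicate 2 or DN3a Rag2(-/-) replicate 2 (adjusted p up to 0.0777). Of the other mitosis genes 41 of 42 rose at the DN3a to DN3b step (median 2.36, background 14.2%), led by Ube2c (3.92 ± 0.29, SE, adjusted p = 1.55e-07), and 31 fell in Rag2-/- cells (background 19.5%). Of the other brakes tested, 7 of 17 rose and 6 fell at the DN3a to DN3b step (background 14.2% and 39.2%). The share of brakes that fell was thus near that of all genes. Btg1, an antiproliferative factor, was at -3.17 ± 0.14 (SE, adjusted p = 1.93e-09).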

How the data were processed

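RNA-seq values of 31 samples of pro-B cells and progenitors and of 17 samples of lymphoid progenitors and thymocytes were used. The authors trimmed reads to 50 nucleotides, aligned them to GRCm38 with STAR (2.4.2a per the labels), counted reads per gene with Rsubread and deposited TPM. For 2 of the samples the deposited raw read counts were used to derive gene lengths and, from these, the reads behind each TPM, which came out whole in 100% of the values tested (tolerance 0.01). The 8 files without gene names took the row order of the 23 named files, as the zeros of 25579 of 25579 rows and the length ratios (within 1% on 100% of 11609 rows) allow. For the lymphoid samples the authors used TopHat (1.4.1 per the labels) and mm9, and deposited a pair of TPM values per gene for 24420 genes. The mean of the pair was used, and an entry of exactly 1 was read as 0. The deposited coverage signal of the ATAC-seq and ChIP-seq tracks was not used.

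Values were analysed as log2(TPM + 0.1), a scale that understates changes of low genes. Each model took the genes that exceeded 1 TPM in any of its samples, and tested them with limma 3.58.1 (R 4.3.3), two-sided, with a trend of the variance on the mean and p-values adjusted over every tested gene by the Benjamini-Hochberg procedure. A gene was called at an adjusted p under 0.05. The central deletions were fitted with Pax5+/+ replicates 3 and 4, the C-terminal deletions and Vav-Cre fl/fl progenitors with all 5 and a term for read length, and the Prd experiment and the lymphoid samples each by themselves. The script was tested on simulated data with 200 changed genes. DN1, DN2a and DN2b each have 2 libraries under 1 replicate number, which were kept as separate samples. The deviations of same-numbered samples correlated weakly at most, and no pairing was used. Whether they were handled together is not stated. For lymphoid samples, 7 members carry a mark for overlap and 1 an older symbol, and these were left out of the counts. Gene rows do not separate overlapping genes. Alternatives were another pseudocount and filter, rescaling by the median of ratios, no variance trend, the compared groups alone, a replicate block, edgeR's quasi-likelihood test on the recovered reads, and each library left out. Further ones, Pax5+/+ samples of the same read length and all 54 members in the lymphoid table, and the comparison of the Pax5-deficient sets were chosen after seeing the data. Named genes are, per comparison, the 4 with the largest called change in each direction, or the 2 with the lowest p, besides the D-type cyclins, Cdk6, the CDK inhibitors and Mki67, up to 2 pathway genes, and members moving against the majority. The members and lists were chosen with earlier results of these data known. Groups held 2 to 5 samples.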

Additional observations from a re-analysis of the deposited data

Results flagged for a closer look

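The level of Ccnb2, a mitotic cyclin, lay far from the others in 1 of the 5 Pax5+/+ samples, replicate 2, at 243 TPM against 437 to 494 TPM in the other 4. The gap took 0.773 of the group's range, above Dixon's critical value of 0.71 for 5 samples. Of the 54 members tested this way in Pax5+/+ cells, 1 was set apart, and chance does so in about 1 of 20.

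The change of 24 members from control to Vav-Cre Pax5 fl/fl progenitors differed between the pro-B experiments and the Prd experiment (limma, adjusted p under 0.05 for the difference of the changes), and in each of the 24 the change was lower in the pro-B experiments. Without single libraries the number was 17 to 28. The experiments cannot be told apart from their controls and read lengths.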

How the results depend on the processing

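Most counts of called members stayed within 1.5 times the reported one: of 313 counts over all comparisons and alternatives, 278 did. Counts that moved further are given by setting, and where no cause is shown the cause was not tested. With edgeR on recovered reads 1 member was called in ∆HD/∆HD and 2 in ∆OP,HD/∆OP,HD cells. Without a term for read length, 1 was called in ∆CRD2/-, 34 in ∆CRD1/- and 35 in Vav-Cre fl/fl against ∆CRD1,2/- cells. With no filter on low values, so that more genes entered the adjustment, 11 were called in ∆CRD1/-, 9 in ∆CRD1/∆CRD1 and 4 in Prd/fl against fl/fl cells. With the compared groups alone, so that fewer samples set the spread, 7 were called in ∆CRD1/- (4 higher, 3 lower, a reversal of the majority), 7 in ∆CRD1/∆CRD1, 19 from LMPP to DN1 and 11 from DN2a to DN2b, and 7 differed between the Pax5-deficient sets. In ∆CRD1/∆CRD1 cells 7 were called with Pax5+/+ samples of the same read length and 25 in a model of all 25 samples of these experiments. Without a variance trend 3 were called in Prd/fl against fl/fl cells. With 1 library left out, the counts were 6 to 27 in ∆CRD1/-, 23 to 40 in ∆CRD1,2/-, 5 to 24 in ∆CRD1/∆CRD1, 29 to 38 in ∆CRD1,2/∆CRD1,2, 43 to 49 in Vav-Cre fl/fl, 13 to 20 in Vav-Cre fl/fl against ∆CRD1,2/-, 31 to 34 in fl/fl and 36 to 49 in Prd/fl against fl/+, 0 to 34 in Prd/fl against fl/fl, 5 to 10 at DN1, 11 to 18 at DN2a, 16 to 34 at DN2b, 26 to 35 at DN3a, 41 to 44 at DN3b, 23 to 34 in Rag2-/- DN3a cells and 17 to 28 for the Pax5-deficient sets. In ∆CRD1/- cells the majority reversed without Pax5+/+ replicate 4 (9 called) and without ∆CRD1/- replicate 1 (6 called). Of 3648 values of single named genes under the alternatives 3358 kept their side of the threshold, 262 lost and 28 gained a call, and 0 reversed. The lowest count of a member in the pro-B and progenitor samples was 43 reads, and the depth of the lymphoid samples was not recovered.

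With the replicate number as a block (replicate block), 3 members were called in ∆CRD1/∆CRD1 and 48 in Vav-Cre fl/fl cells (samples of 50 nucleotides), 44 in fl/fl and 44 in Prd/fl against fl/+, and 16 in Prd/fl against fl/fl cells. In the lymphoid table the replicate block gave 11, 14, 27, 35, 44 and 38 at the successive comparisons. Same-numbered samples correlated between -0.29 and 0.18 in their deviations, with 7 of 56 C-terminal and 3 of 61 lymphoid pairs above 0.1. These values do not show whether same-numbered samples were handled together. A block could not be fitted for the central deletions and the C-terminal samples of 100 nucleotides, which share no number with their Pax5+/+ samples.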
